A study of Macaca mulatta with 30 samples.

Results

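The apolipoprotein genes of the rhesus macaque (Macaca mulatta) were taken as every row of the deposited abundance table whose symbol begins with APO followed by 1 of the letters A, B, C, D, E, F, H, L or M and an optional number, with a mean of at least 1 TPM (a length-scaled measure of transcript abundance) in at least 1 tissue. TPM divides by transcript length and scales every library to the same total. All 19 rows with such a symbol met the minimum, out of 21292 rows in the table, and all 19 were among the 13550 features that passed the filter on low values. They are APOA1, APOA2, APOA4, APOA5, APOB, APOC1, APOC2, APOC3, APOC4, APOD, APOE, APOF, APOH, APOL1, APOL2, APOL4, APOL5, APOL6 and APOM. The names were matched to a RefSeq gene table of the assembly T2T-MMU8v2.0 for 17 of the 19, with APOL1 and APOL4 unmatched. In that table APOA5, APOA4, APOC3 and APOA1 follow each other directly, and APOE, APOC1, APOC4 and APOC2 lie in a row with only an uncharacterised locus between APOC1 and APOC4.

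Apolipoproteins are the protein coat of plasma lipoproteins. APOB is the non-exchangeable scaffold of chylomicrons, very-low-density and low-density lipoproteins, APOA1 and APOA2 form the core of high-density lipoprotein, and the small exchangeable APOC and APOE proteins move between particles, where they steer lipases and receptor uptake. The liver is the main source of most plasma apolipoproteins. APOE and APOC1 are also made by macrophages and fat tissue, APOD by many connective and glandular tissues, and the APOL proteins are mostly intracellular and are induced by inflammatory signals.

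RNA sequencing was done on 5 tissues of 6 animals: liver, pancreas, and the parotid, submandibular and sublingual salivary glands, 1 library per tissue per animal, 30 in all. Animals 1 to 4 were female and animals 5 and 6 male, and no genotype, treatment or age is given. Every sample was flash frozen and read as paired reads of 150 bases, and the parotid of animal 3 was named as a right gland where the other parotids were left. The study was built around salivary glands against pancreas and pancreas against liver within the same animals. All values below are TPM, and fold changes are log2 of (TPM + 1) from limma with a term for the animal. "Called" means a Benjamini-Hochberg adjusted p below 0.05 over the 13550 features.

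The tissue labels were compared with marker genes. Over the 6 livers 11 hepatocyte markers summed to 34009 to 101472 TPM, against at most 4775 TPM in any other library. The 6 pancreatic acinar markers summed to 82349 to 250635 TPM in 5 pancreas libraries and to 2202 TPM in that of animal 4. The 4 salivary markers present in the table summed to 191417 to 284191 TPM in 5 submandibular libraries and to 1436 TPM in that of animal 4. In these 2 libraries of animal 4 the markers of the labelled tissue were no higher than in other tissues, and many values of single genes that rest on them are also given without them. The mean shares of all TPM, the medians over the genes and the correlations are given with them only. In sublingual gland the salivary markers summed to 2131 TPM in animal 4, 4888 TPM in animal 1 and 11231 to 41578 TPM in the other 4. The livers had 4121 to 6877 TPM, so the sum did not set the first 2 above liver. The 4 markers disagreed in sublingual gland, with means from 3.91% to 9737% of their parotid means. Their sum therefore does not settle the label of these 2 libraries, and no fit left out these 2 together. The sublingual libraries of animals 1 and 5 also carried 8420 and 23520 TPM of 7 skeletal muscle markers, against 49.0 to 302 TPM in the other 4. The parotid library of animal 6 carried 69993 TPM of the same muscle markers, where the other parotids had 58.1 to 5407 TPM.

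In liver the 19 genes together made up 10.1% ± 1.78 (SD, n = 6) of all TPM, with a range of 8.23% to 12.95% over the 6 animals. The same sum was 0.0541% ± 0.0132 in parotid, 0.0926% ± 0.0157 in sublingual gland, 0.123% ± 0.174 in submandibular gland and 0.252% ± 0.368 in pancreas (n = 6 each). The highest submandibular and pancreas values, 0.477% and 1.00%, were those of animal 4. By mean TPM 16 genes were highest in liver, and by median TPM 18 were, APOD being the exception with its highest median in sublingual gland. In bulk samples such as these, fewer cells of a type and less RNA per cell cannot be told apart.

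**Figure D1:**
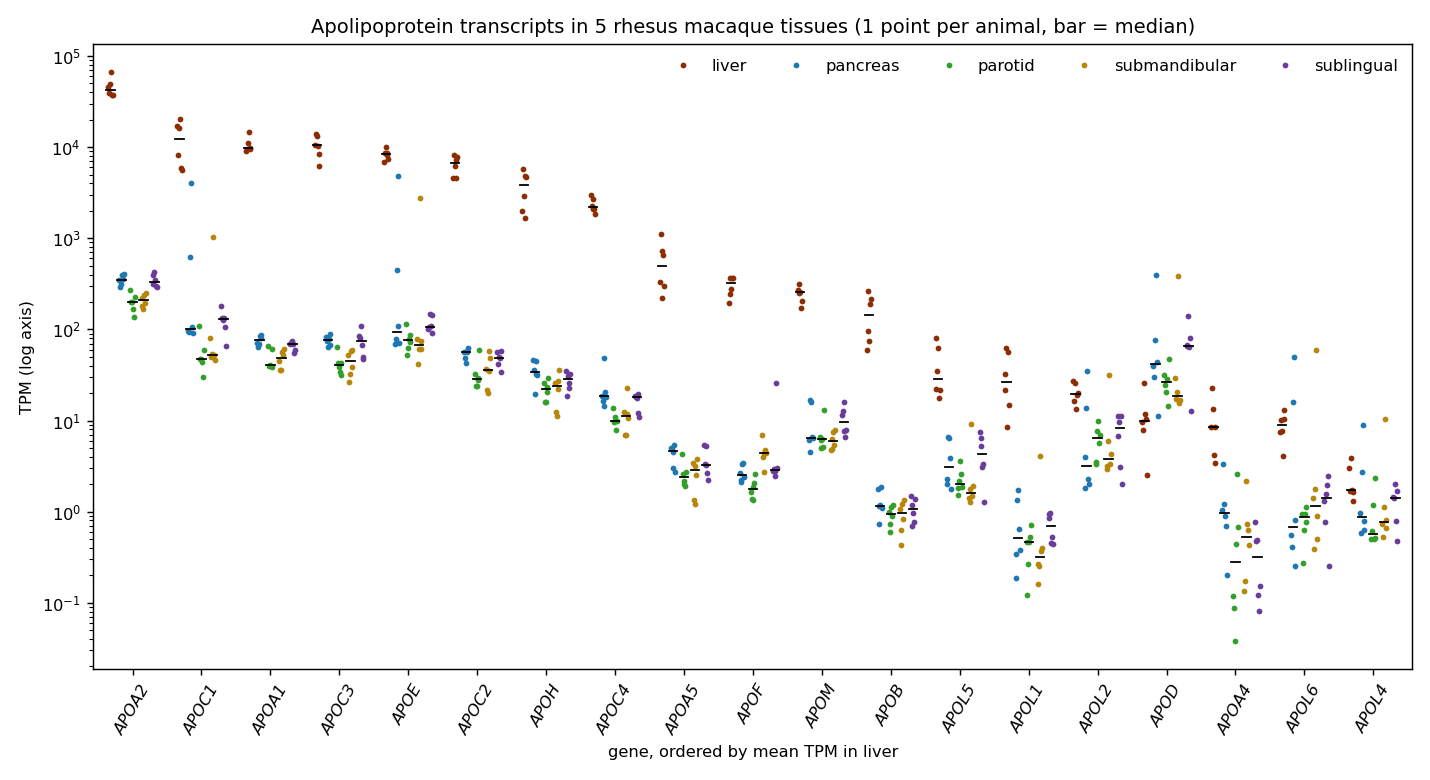
TPM on a log axis for each of the 19 genes (ordered by mean in liver) in 5 tissues, 1 point per animal and a bar at the median. Liver lies far above the other tissues from APOA2 (median 42226 TPM in liver) down to APOB (median 143.8 TPM), while APOD lies lowest in liver, and single high points of animal 4 stand out for APOE, APOC1, APOD and APOL6.

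Liver against each of the other tissues gave the largest differences. Against parotid 17 of the 19 genes were called higher in liver and 1 lower, where 53.4% of all features tested were called higher in liver. Against submandibular gland 16 were called higher and 1 lower (45.1% of all features higher), against sublingual gland 17 and 1 (18.7%), and against pancreas 16 and 1 (23.6%). The median log2 fold change of the 19 genes was 6.73, 6.10, 5.98 and 5.44 in that order, beside medians over all features of 0.84, 0.70, 0.10 and 0.36. Relative to those medians the genes stood 5.89, 5.40, 5.88 and 5.08 higher in liver. The share of all features called higher depended on the scaling: with trimmed-mean scaling, liver against parotid had 3400 features higher and 2484 lower in place of 7232 and 624, yet 16 of the 19 genes were still called higher and 1 lower. For liver against submandibular gland the same change took the split from 6107 higher and 769 lower to 3475 and 2844, and for liver against pancreas from 3198 and 916 to 2835 and 2163. APOA4 and APOL1 passed the filter only through their liver libraries, so a difference for these 2 was built into the filter.

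**Figure D2:**
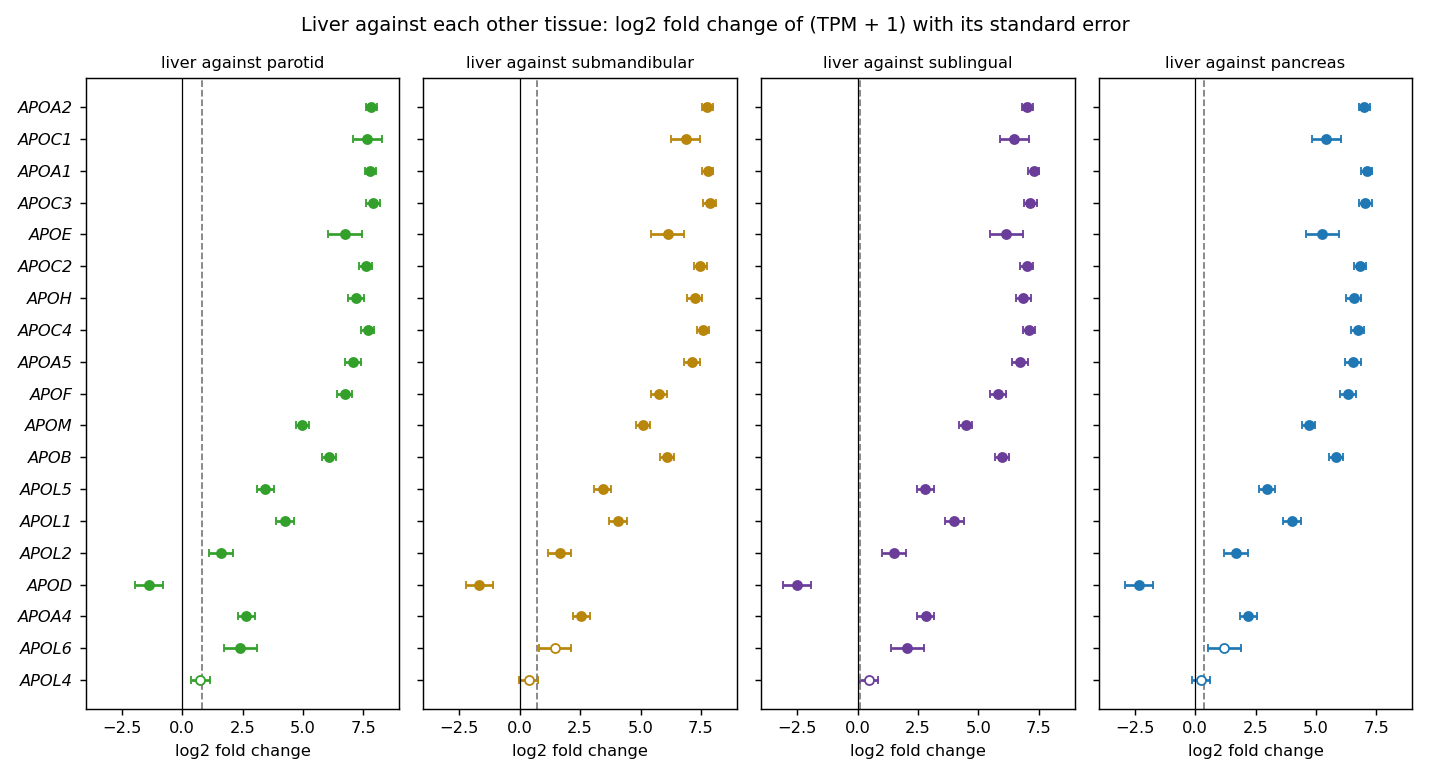
Log2 fold change of (TPM + 1), liver against each other tissue, with its standard error. Filled points were called at an adjusted p below 0.05, open points were not, and the dashed line is the median over all features. Most genes lie between 5 and 8, APOD lies below 0 in all 4 panels, and APOL4 is open in all 4.

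A protein of high-density lipoprotein led the group. APOA2, the second most abundant protein of that particle, had the highest level per transcript length of all 19 genes. In liver it ran from 37594 TPM through a median of 42226 to 66169 TPM, in pancreas from 291 through 352 to 401, in sublingual gland from 291 through 333 to 424, in submandibular gland from 166 through 209 to 249, and in parotid from 137 through 199.8 to 269 TPM. The lowest liver therefore stood far above the highest library of every other tissue, and animal 4 had the highest liver. Its log2 fold change in liver was 7.83 ± 0.23 (SE) against parotid (adjusted p = 1.9e-19) and 7.01 ± 0.23 against pancreas (adjusted p = 9.8e-19).

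APOA1, the main structural protein of high-density lipoprotein and the activator of lecithin-cholesterol acyltransferase, ran in liver from 9133 through a median of 9744 to 14818 TPM. Outside the liver it was lowest in parotid (38.9, median 40.4, highest 65.9 TPM) and submandibular gland (35.5, 48.8 and 61.1 TPM) and a little higher in sublingual gland (54.6, 68.7 and 73.8 TPM) and pancreas (64.6, 75.9 and 87.6 TPM). No library outside the liver reached 1% of the lowest liver. The level in liver was 140-fold that in pancreas and 224-fold that in parotid as a ratio of means. In all 6 animals liver was higher than each other tissue, which gives the smallest p an exact sign-flip test over 6 animals allows, 0.03125 (two-sided).

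APOM, a lipocalin of high-density lipoprotein that carries sphingosine 1-phosphate, was higher outside the liver than most of the group, relative to its liver level. Its liver values ran from 172 through 256.4 to 312 TPM, and its other values from 4.54 through 6.48 to 16.7 in pancreas, 4.95 through 6.20 to 13.2 in parotid, 4.77 through 5.90 to 7.94 in submandibular gland and 6.52 through 9.61 to 16.0 in sublingual gland. Groups did not overlap, but the other tissues held 2.501% to 4.21% of the liver mean, and the log2 fold change was 4.70 ± 0.28 against pancreas. APOF, which modulates cholesteryl ester transfer, ran in liver from 194.5 through 322 to 369 TPM. Elsewhere it ran from 2.09 through 2.55 to 3.39 in pancreas, 1.36 through 1.75 to 2.60 in parotid, 2.73 through 4.37 to 6.87 in submandibular gland and 2.46 through 2.87 to 25.6 in sublingual gland, the last value being animal 5 alone. APOA4, a protein best known from the intestine, had a liver mean of 10.1 TPM ± 7.21 (SD, n = 6) and means of 0.350 to 1.23 TPM elsewhere.

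The triglyceride-rich particles depend on APOB and on the APOC proteins. APOB ran in liver from 59.3 through 143.8 to 266 TPM, and outside it the lowest, median and highest values were 0.735, 1.16 and 1.87 in pancreas, 0.596, 0.939 and 1.19 in parotid, 0.435, 0.955 and 1.36 in submandibular gland and 0.695, 1.08 and 1.49 TPM in sublingual gland. It was thus among the less abundant of the liver-high genes per transcript length, and its log2 fold change against pancreas was 5.84 ± 0.29. APOA5, an activator of lipoprotein lipase action, ran in liver from 221 through 497 to 1122 TPM. Its other values lay between 1.21 and 5.44 TPM, with medians of 4.65 in pancreas, 3.29 in sublingual gland, 2.87 in submandibular gland and 2.39 in parotid. Both genes varied widely between livers, and neither overlapped with another tissue.

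APOC3, an inhibitor of lipoprotein lipase and of remnant uptake, ran in liver from 6276 through 10459.7 to 13818 TPM. In pancreas it ran from 64.5 through 76.4 to 88.9, in parotid from 31.4 through 40.7 to 64.05, in submandibular gland from 26.2 through 45.4 to 60.1 and in sublingual gland from 47.2 through 74.0 to 110.1 TPM. Its 247-fold ratio of means between liver and parotid was the highest of the 19 genes. APOC2, the cofactor that activates lipoprotein lipase, ran in liver from 4551 through 6700.4 to 8251 TPM, in pancreas from 42.6 through 56.9 to 62.0, in parotid from 23.7 through 28.6 to 59.6, in submandibular gland from 19.8 through 35.9 to 57.9 and in sublingual gland from 34.2 through 49.1 to 58.3 TPM. APOC4 ran in liver from 1868 through 2189.9 to 2976 TPM, in pancreas from 14.4 through 18.4 to 48.7, in parotid from 7.78 through 9.93 to 13.8, in submandibular gland from 6.87 through 11.3 to 22.7 and in sublingual gland from 10.8 through 17.9 to 19.3 TPM. Its highest pancreas and submandibular values were those of animal 4, and without them the means were 17.6 and 9.72 TPM (n = 5 each). The RefSeq entry of APOC2 carries APOC4 as a synonym, and how reads were divided between these neighbours is not given in the sources used here, so the split between the 2 genes is uncertain.

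APOH, a phospholipid-binding plasma glycoprotein known for its role in coagulation, ran in liver from 1651 through 3821 to 5788 TPM. Elsewhere it ran from 19.6 through 34.0 to 46.3 in pancreas, 15.8 through 22.0 to 29.0 in parotid, 11.1 through 24.1 to 35.6 in submandibular gland and 18.7 through 28.5 to 34.7 TPM in sublingual gland. The groups did not overlap, and its log2 fold change in liver was 6.56 ± 0.32 against pancreas (adjusted p = 1.2e-15).

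APOE and APOC1 were the genes in which 2 libraries decided the level outside the liver. APOE, a ligand for receptor uptake of lipoprotein remnants, ran in liver from 6949 through 8366 to 9936 TPM, with the smallest relative spread of the 19 genes among livers (coefficient of variation 12.7%). In parotid it ran from 52.0 through 76.0 to 113.7 and in sublingual gland from 90.6 through 107.2 to 146.7 TPM. In pancreas it ran from 68.7 through 93.4 to 4796 TPM, and in submandibular gland from 41.4 through 68.0 to 2761 TPM. Both highest values came from animal 4 and amounted to 55.0% and 31.7% of the APOE level in that animal's own liver. The next highest pancreas was that of animal 3, with 450 TPM, and the next highest submandibular gland had 78.8 TPM. Without the 2 libraries of animal 4 the mean was 155 TPM ± 165 (SD, n = 5) in pancreas and 63.4 TPM ± 14.7 (n = 5) in submandibular gland, in place of 929 ± 1900 and 513 ± 1101 (n = 6). The pancreas mean without animals 3 and 4 was 81.8 TPM ± 18.6 (n = 4). The log2 fold change of liver against pancreas was 5.27 ± 0.69 with the 2 libraries of animal 4 and 6.16 without them, called in both.

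APOC1, an inhibitor of cholesteryl ester transfer and of lipoprotein uptake, ran in liver from 5593 through 12254 to 20353 TPM, in parotid from 29.9 through 47.8 to 109.8 and in sublingual gland from 65.3 through 129.6 to 179.6 TPM. In pancreas it ran from 92.0 through 101.6 to 3993 TPM, and in submandibular gland from 46.5 through 52.7 to 1033 TPM, again highest in animal 4. Animal 3 had 617 TPM in pancreas. Without the 2 libraries of animal 4 the means were 201 TPM ± 233 in pancreas and 56.6 TPM ± 13.7 in submandibular gland (n = 5 each), and the pancreas mean without animals 3 and 4 was 97.3 TPM ± 6.66 (n = 4). The log2 fold change of liver against pancreas was 5.44 ± 0.60 with the 2 libraries of animal 4 and 6.19 without them.

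The same 2 libraries were high in APOD and in the APOL genes. APOD, a lipocalin that binds arachidonic acid and other small lipids, was the only one of the 19 genes called lower in liver than in another tissue. Its liver values ran from 2.51 through 9.99 to 26.0 TPM, its parotid values from 14.5 through 26.4 to 47.4, its sublingual values from 12.7 through 66.0 to 140.2, its submandibular values from 15.6 through 18.7 to 388 and its pancreas values from 11.3 through 41.3 to 396 TPM. Animal 4 gave the 396 and the 388 TPM, and without it the pancreas had 40.1 TPM ± 23.9 and the submandibular gland 19.9 TPM ± 5.74 (n = 5 each). Liver was lower than sublingual gland and lower than pancreas in 6 of 6 animals (log2 fold changes -2.52 ± 0.58 and -2.33 ± 0.58, adjusted p = 0.0011 and 0.0027), although the ranges of the groups overlapped. Without the 2 libraries of animal 4 the pancreas difference was -1.78 and still called. Against parotid liver was lower in 5 of 6 animals (-1.38 ± 0.58, adjusted p = 0.0437), and that call was lost without the parotid library of animal 6 (adjusted p = 0.155), and without animal 1, 2, 5 or 6 (adjusted p 0.0559 to 0.184), without the animal term (adjusted p = 0.0939) and with no filter on low values (adjusted p = 0.0682). Against submandibular gland it was -1.67 ± 0.58 (adjusted p = 0.0186), which was -0.998 (adjusted p = 0.0367) without the 2 libraries of animal 4, and this call was lost without animal 1 (adjusted p = 0.0564).

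The APOL family consists of mostly intracellular proteins, and APOL1 is also a serum factor that kills trypanosomes. Family members resemble each other in sequence, so reads may have been divided unevenly between them and their levels are uncertain. APOL6 ran in liver from 4.05 through 8.94 to 13.1 TPM, in pancreas from 0.251 through 0.684 to 50.1, in submandibular gland from 0.388 through 1.14 to 59.2, in parotid from 0.276 through 0.862 to 1.13 and in sublingual gland from 0.254 through 1.43 to 2.45 TPM. APOL4 ran in liver from 1.299 through 1.72 to 3.90 TPM, in pancreas from 0.585 through 0.882 to 8.83, in submandibular gland from 0.532 through 0.768 to 10.5, in parotid from 0.505 through 0.562 to 2.31 and in sublingual gland from 0.471 through 1.43 to 1.99 TPM. The highest pancreas and submandibular values of both genes were those of animal 4, and for both the mean was highest in pancreas while the median was highest in liver. APOL6 was not called in liver against pancreas (log2 fold change 1.21 ± 0.68, adjusted p = 0.188) or submandibular gland (1.46 ± 0.68, adjusted p = 0.0764). It was called against parotid (2.41 ± 0.68) and sublingual gland (2.05 ± 0.68), the latter lost without animal 1, 2 or 6 (adjusted p 0.0587 to 0.0952). Without the 2 libraries of animal 4 it was called in pancreas and submandibular gland too (1.97 and 2.31, adjusted p = 6.6e-04 and 6.3e-05).

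APOL4 was not called against any tissue with all 30 libraries, with log2 fold changes of 0.24 to 0.75. Without those 2 libraries it was called higher in liver than in pancreas (0.67, adjusted p = 0.0136), submandibular gland (0.87, adjusted p = 0.0011) and parotid (0.75, adjusted p = 0.0026), and not than in sublingual gland (0.47, adjusted p = 0.0670). APOL2 had a liver mean of 20.3 TPM ± 5.21 and means of 6.18 to 9.77 TPM elsewhere, with 35.0 and 31.4 TPM in the pancreas and submandibular libraries of animal 4, and means of 4.73 and 3.94 TPM in these tissues without them. It was called higher in liver in all 4 comparisons (log2 fold changes 1.503 to 1.68), but the call was lost against parotid with trimmed-mean or quantile scaling (adjusted p = 0.131 and 0.403) and against submandibular gland with quantile scaling or without animal 1 (adjusted p = 0.120 and 0.0516). Against pancreas the call was lost without animal 1, 2, 5 or 6 (adjusted p 0.0557 to 0.0735), and against sublingual gland without animal 2, 3 or 6 (adjusted p 0.0507 to 0.102). APOL1 had 32.7 TPM ± 22.4 in liver and means below 1 TPM elsewhere, and APOL5 had 39.9 TPM ± 26.0 in liver and means of 2.27 to 4.47 TPM elsewhere (n = 6). Without animal 4 the submandibular mean of APOL5 was 1.56 TPM (n = 5).

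Markers of several other cell types were also high for their tissues in both of these libraries of animal 4. The 6 adipocyte markers summed to 18013 and 7840 TPM in the pancreas and submandibular libraries of animal 4, while the other 28 libraries ran from 8.19 to 1700 TPM, the pancreas of animal 3 being the highest of them. The 9 macrophage markers summed to 395 and 1340 TPM, against 12.8 to 916 TPM in the others, where the highest were livers. The 5 fibroblast markers summed to 990 and 4757 TPM against 23.6 to 264, the 4 endothelial markers to 258 and 205 TPM against 2.48 to 36.1, and the 5 blood markers to 13942 and 10899 TPM against 45.9 to 3675. All 6 adipocyte, all 5 fibroblast and all 4 endothelial markers reached 1 TPM in both libraries, as did 4 of 5 blood markers, and 9 and 8 of the 9 macrophage markers did. The 6 nerve and glia markers summed to 1155 and 1062 TPM against 5.63 to 121, but only 3 and 4 of them reached 1 TPM. The part of these cell types in the APOE, APOC1, APOD and APOL values was not tested. In contrast, APOA1, APOA2, APOA5, APOB, APOC3 and APOH stood within the range of the other 5 animals in both libraries, with APOA1 at 85.5 TPM in pancreas (others 64.6 to 87.6) and 56.2 TPM in submandibular gland (others 35.5 to 61.1).

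**Figure D3:**
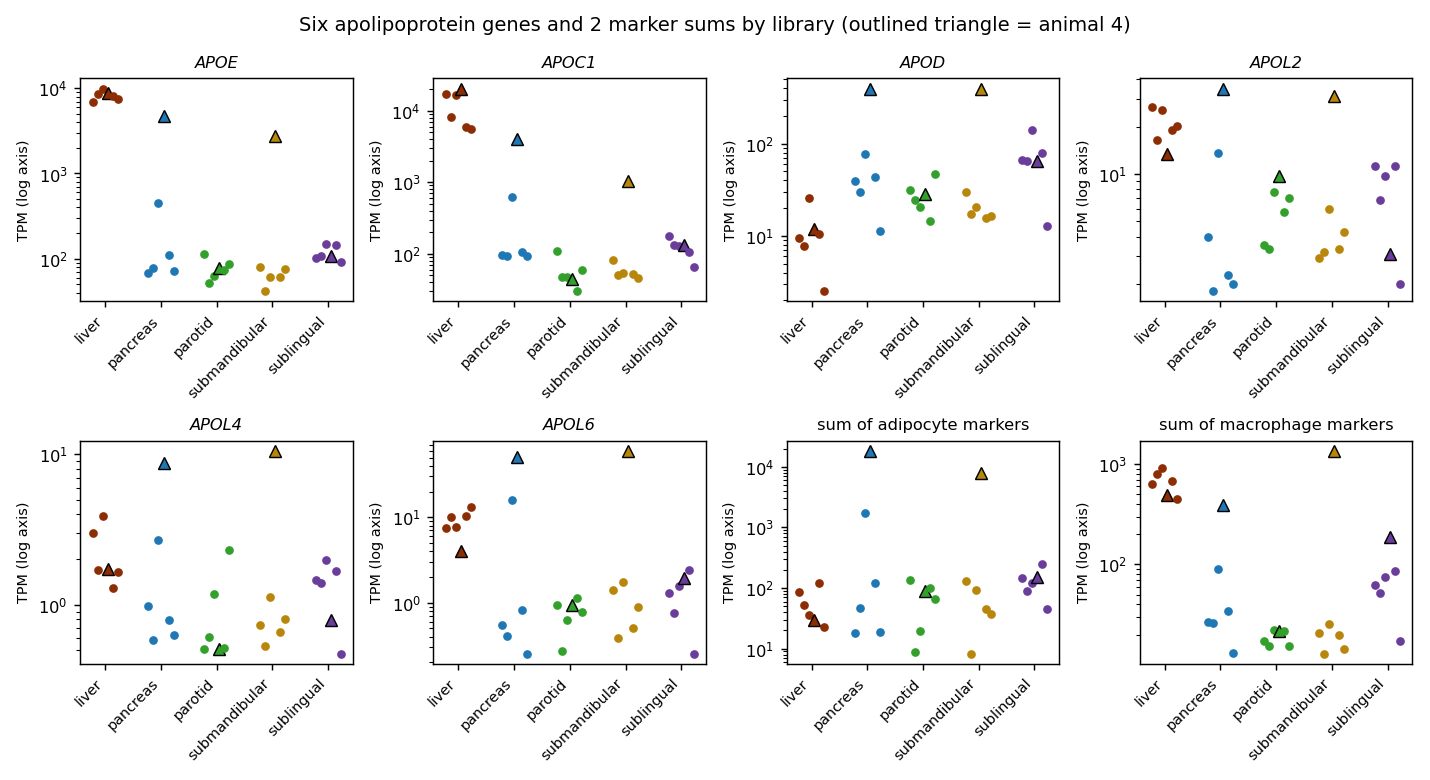
TPM on a log axis of 6 apolipoprotein genes and of the summed adipocyte and macrophage markers, by tissue with 1 point per library. Outlined triangles are animal 4. They stand above all other pancreas and submandibular libraries in every panel (APOE 4796 and 2761 TPM, adipocyte sum 18013 and 7840 TPM), but not in liver, parotid or sublingual gland as a rule.

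Outside the liver most of the liver-high genes kept a small and even share of their liver level. For the 12 genes with a liver mean of at least 100 TPM, the median share of the liver mean was 0.875% in pancreas, 0.751% in sublingual gland, 0.593% in submandibular gland and 0.489% in parotid. The 11 hepatocyte markers, among them albumin, fibrinogen and transferrin, gave medians of 0.894%, 0.795%, 0.677% and 0.629% in the same tissues. The medians of both sets had the same order of tissues. TPM values share a fixed total, and the 10 most abundant genes of a library took unlike parts of it. They took 20.3% to 27.4% in liver, 14.2% to 49.6% in pancreas and 18.7% to 52.5% in sublingual gland. In submandibular gland they took 11.1% to 78.9% and in parotid 38.8% to 81.4%. The part of this in the order of tissues was not tested. Of the 19 genes, 7 lay below the lowest hepatocyte marker in parotid (0.540%), 5 in submandibular gland (0.550%), 4 in pancreas (0.776%) and 2 in sublingual gland (0.687%), APOA1 and APOA5 in every tissue. Pancreatic acinar markers stood at 0.878% to 1.21% of their pancreas mean in liver and at 0.471% to 0.944% in the 3 salivary glands. Whether transcripts at this level were made in the tissue they were measured in was not tested. Set against the liver of the same animal, the median share of the 12 genes in pancreas ranged from 0.642% to 1.78% over the 6 animals, and that of the hepatocyte markers from 0.610% to 2.68%.

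Some genes stood above the hepatocyte markers. Of the 19 genes, 9 stood above the second highest marker in parotid, 11 in submandibular gland, 11 in sublingual gland and 10 in pancreas. APOA4, APOD and the APOL genes, all with liver means below 100 TPM, were among them in every tissue. The genes named below are from the 12 with a liver mean of at least 100 TPM. In parotid the highest hepatocyte marker reached 0.836% of its liver mean, while APOM had 2.86% and APOE 0.939%. In sublingual gland the highest marker reached 1.08%, while APOM had 4.21% and APOE 1.40%. APOF had 2.18% there, and 0.923% without the library of animal 5. In submandibular gland the highest marker reached 0.820%, and without animal 4 APOM had 2.39% and APOF 1.61%, while APOE had 0.764% and APOC1 0.463%. In pancreas transthyretin, which islet cells also make, had 11.8%, and every other marker had at most 1.16%. Without animal 4, pancreas APOM had 3.28%, APOE 1.87% and APOC1 1.65%, and without animals 3 and 4 they had 2.40%, 0.986% and 0.796%, so that of these only APOM was above 1.16%. Animal 3 was left out after its values were seen, its pancreas having the adipocyte sum of 1700 TPM. That library also had 132626 TPM of the 5 islet markers, where the other pancreas libraries had 439 to 12700 TPM. Its highest hepatocyte marker stood at 45.3% of the liver of the same animal, against 4.41% to 11.3% in the other pancreas libraries. These shares are descriptions of these libraries and carry no test.

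**Figure D4:**
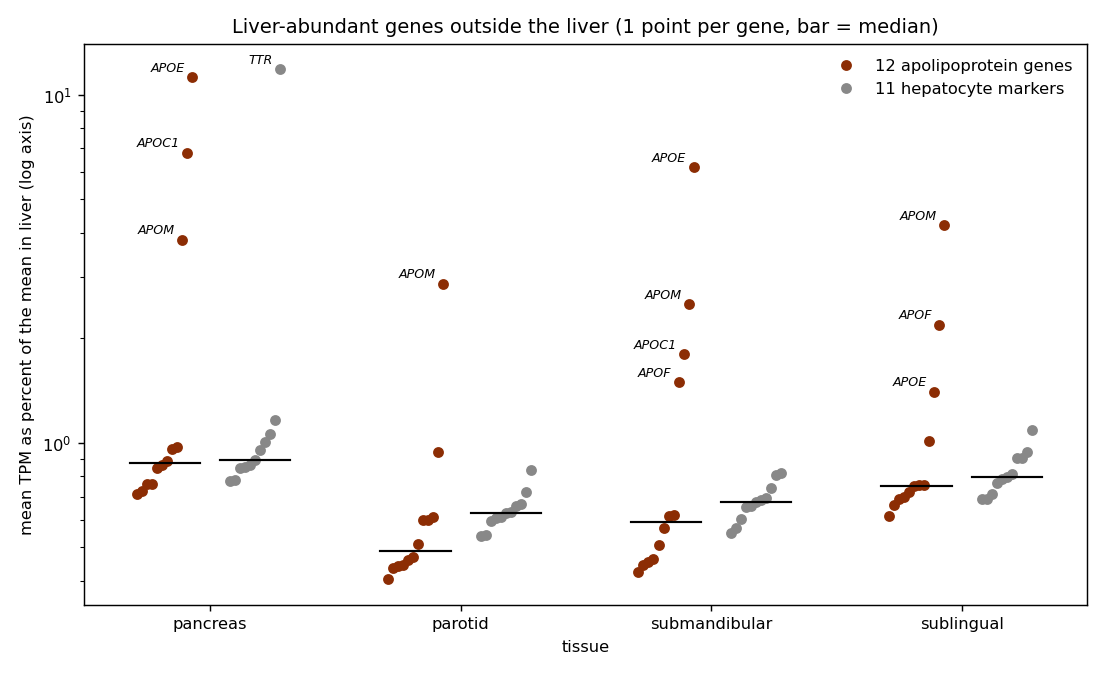
Mean TPM in each tissue as a percent of the mean in liver (log axis), 1 point per gene and a bar at the median, for 12 apolipoprotein genes and 11 hepatocyte markers. Both sets lie mostly between 0.4% and 1.2%, and APOM stands above that band in all 4 tissues. APOE and APOC1 stand above it in pancreas and submandibular gland, where animal 4 is high, and APOE also in sublingual gland (1.40%). APOF stands above it in sublingual gland, where animal 5 is high, and in submandibular gland (1.49%). TTR (transthyretin) does so in pancreas.

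Among the 4 tissues other than liver the differences were small. Pancreas had the highest mean of these 4 for 15 of the 19 genes, but the highest median for only 9, with sublingual gland highest for 9 and submandibular gland for 1, APOF. By mean 7 genes shared the full order of means liver, pancreas, sublingual gland, submandibular gland, parotid. Neighbours in that order outside the liver gave few calls in the fit of all 30 libraries. The pairs pancreas and sublingual gland, and submandibular gland and parotid, gave no call, and sublingual and submandibular gland gave 1, APOA2. Without the 2 libraries of animal 4 more genes were called between sublingual and submandibular gland, and between parotid and sublingual gland. The counts are given in the last section, so few calls here do not show a lack of difference. Parotid against pancreas called 6 of the 19 genes, all lower in parotid (15.8% of all features were called in either direction): APOA1, APOA2, APOC1, APOC2, APOC3 and APOC4. Their log2 fold changes ran from -0.70 to -2.23, the latter being APOC1, which had -1.48 (adjusted p = 0.0061) without the 2 libraries of animal 4. For APOA2, APOC3 and APOC4 the 2 groups did not overlap, but the share of all features without overlap was not counted. Leaving out 1 animal at a time gave 1 to 6 calls. Submandibular gland against pancreas called 2 genes, APOA2 (-0.75 ± 0.23, adjusted p = 0.0322) and APOC4 (-0.86 ± 0.26, adjusted p = 0.0347), both lower in the gland (9.71% of all features). Both calls were lost without animal 1, 2, 3, 5 or 6 (adjusted p 0.0707 to 0.193) and with trimmed-mean or quantile scaling (adjusted p 0.284 to 0.928). Without the 2 libraries of animal 4 it called 6, these 2 among them, and the share of all features called in that fit is not given here. Parotid against sublingual gland called APOA2 (-0.80 ± 0.23), APOC3 (-0.75 ± 0.27) and APOF (-0.91 ± 0.33), all lower in parotid, where 41.5% of all features were called, and submandibular against sublingual gland called APOA2 alone (-0.73 ± 0.23, adjusted p = 0.0193, 27.9% of all features).

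Sublingual gland against pancreas called none of the 19 genes by limma (13.9% of all features), and parotid against submandibular gland called none (0.347%). At an unadjusted p below 0.05 the first had 0 and the second 1 of the 19, APOF. As shares, the calls came to 31.6% of the 19 genes in parotid against pancreas, 10.5% in submandibular gland against pancreas, 15.8% in parotid against sublingual gland and 5.26% in submandibular against sublingual gland, which is below or close to the share of all features in all but the first. The median over all features was -0.48 in parotid against pancreas and -0.70 in parotid against sublingual gland, beside -0.64 and -0.50 for the 19 genes. With trimmed-mean scaling the parotid and pancreas count dropped from 6 to 1 gene, the parotid and sublingual count from 3 to 0, and APOA2 and APOC3 changed direction between parotid and sublingual gland (0.19 and 0.22). The calls over all features went from 2141 to 2266 for parotid and pancreas and from 5625 to 2366 for parotid and sublingual gland. APOF was higher in submandibular gland than in parotid in 6 of 6 animals, with no overlap between the groups (log2 fold change of parotid against submandibular gland -0.95 ± 0.33, exact sign-flip p = 0.03125, the smallest possible with 6 animals), but it was not called (adjusted p = 0.622). The share of all features without overlap was not counted for this pair either. Of the calls between parotid and sublingual gland, APOF was lost without animal 1, 2 or 3 (adjusted p 0.0595 to 0.0707) or 5 (-0.47, adjusted p = 0.208), APOC3 without animal 1, 2, 3 or 5 (adjusted p 0.0743 to 0.153), and APOA2 without animal 3 or 5 (adjusted p = 0.0510 and 0.0602). All 3 were lost with the 12 libraries of these glands alone (APOF adjusted p = 0.0955). Without the sublingual libraries of animals 1 and 5, the pair with muscle markers, APOA2 alone was still called against parotid, and the APOA2 call between submandibular and sublingual gland was lost (adjusted p = 0.0646). That call was also lost without animal 1, 2, 3 or 5 (adjusted p 0.0753 to 0.149).

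The livers themselves differed between animals, in opposite directions for different genes. APOB, APOC2, APOF, APOH and APOL6 had their 3 highest livers in animals 2, 5 and 6, and APOA2, APOC1, APOL4, APOL5 and APOM had theirs in animals 1, 3 and 4. APOH had 5788, 4786 and 4763 TPM in animals 2, 5 and 6 and 2879, 1970 and 1651 TPM in animals 3, 1 and 4. APOC1 had 8122, 5945 and 5593 TPM in animals 2, 5 and 6 and 16387, 16957 and 20353 TPM in animals 3, 1 and 4. The hepatocyte marker sum was 92954, 86788 and 101472 TPM in animals 2, 5 and 6 and 54715, 34009 and 50319 TPM in animals 3, 1 and 4. The 13 mitochondrial genes took 10.5%, 17.0% and 13.8% of TPM in the first 3 and 19.6%, 24.7% and 21.6% in the other 3. The part of these library differences in the apolipoprotein values was not tested, and the order of animals was read from the data and carries no test. The highest liver exceeded the lowest 1.43-fold for APOE and 1.62-fold for APOA1, but 4.49-fold for APOB, 5.08-fold for APOA5 and 10.4-fold for APOD.

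**Figure D5:**
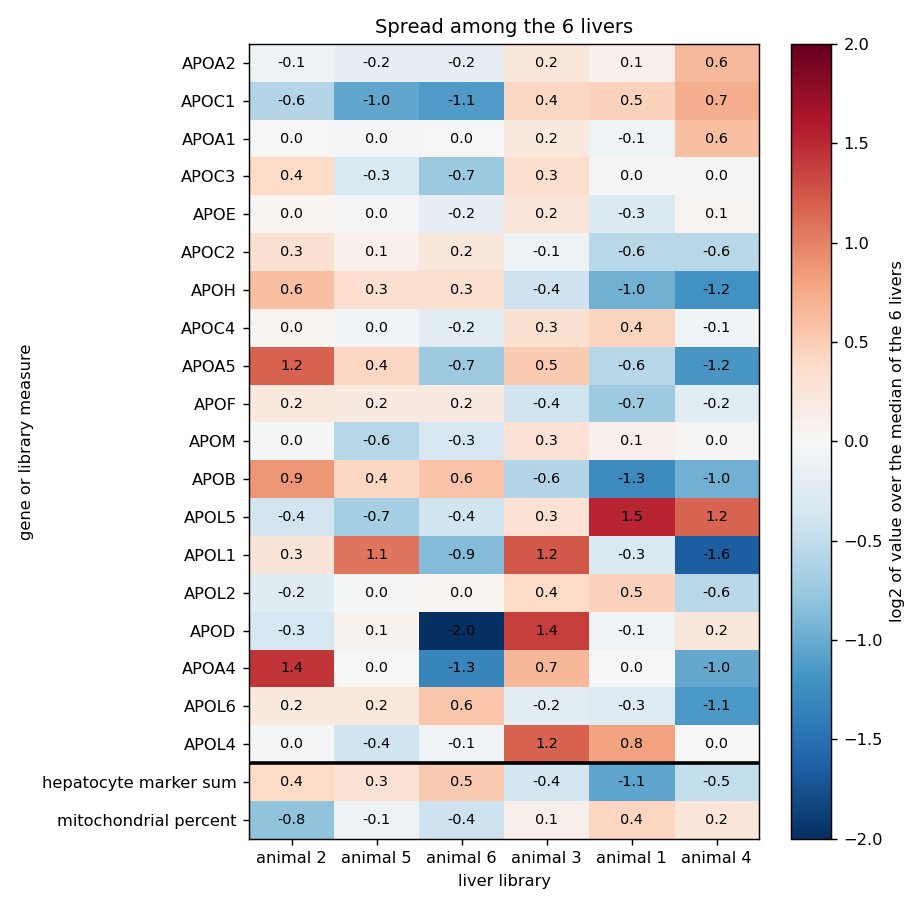
Log2 of each liver library's TPM over the median of the 6 livers, for 19 genes and, below the line, the hepatocyte marker sum and the mitochondrial percent. Animals are ordered by their APOH level. APOH and APOB turn from red (high) in animals 2, 5 and 6 to blue (low) in animals 3, 1 and 4, with APOC1 and APOL5 the other way round.

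The genes with the most similar pattern over the 30 libraries were looked up among 6205 genes with at least 10 TPM in a tissue. For APOA1 these were RDH16, a retinol dehydrogenase, C8G, a complement component, and HP, haptoglobin (Pearson r 0.996 for all 3, on log2 of TPM + 1). For APOE they were NR1H3, the oxysterol receptor LXR alpha (0.985), C1S, a complement protease (0.978) and RARRES2, chemerin (0.978). NR1H3 had 31.7 TPM ± 7.88 in liver and 0.866 TPM ± 0.310 in parotid. For APOD they were GSN, gelsolin (0.918), PLXDC1 (0.901) and SFRP2, a secreted Wnt modulator (0.886), and for APOL6 they were SCARB1, the high-density lipoprotein receptor (0.946), RETSAT, a retinol saturase (0.938) and C1QTNF1 (0.937). The 30 points share 6 animals and 5 tissues and include the 2 libraries of animal 4, so these values describe the libraries and carry no p-value.

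Other lipoprotein genes were read from lists of known function, liver against pancreas, where 23.6% of all features were called higher in liver. Of 9 receptor and uptake genes tested, 6 were called higher in liver and 1, VLDLR, a receptor of triglyceride-rich particles, lower (-0.97 ± 0.32). Among those with the largest change was LRP1, a receptor of APOE-bearing remnants (2.63 ± 0.64). Of 11 genes of particle assembly, 7 were called higher and none lower, led by TM6SF2, which lipidates very-low-density lipoprotein (4.44 ± 0.23), MTTP, which loads lipid onto APOB (3.92 ± 0.20), and SOAT2, a cholesterol esterifying enzyme (3.70 ± 0.20). MTTP had 18.5 TPM ± 7.85 in liver and 0.197 TPM ± 0.0584 in pancreas. In the salivary glands its means were 0.158 to 0.193 TPM, so it passed the filter on low values only through its livers. A difference for MTTP was therefore built into the filter.

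Of 13 lipase and remodelling genes, 9 were called higher in liver and 1, GPIHBP1, the capillary anchor of lipoprotein lipase, lower (-2.33 ± 0.67, with 34.4 TPM ± 63.2 in pancreas). Without the 2 libraries of animal 4 GPIHBP1 was -1.58 (adjusted p = 0.0024), with 8.999 TPM ± 11.3 in pancreas (n = 5). Among the largest changes were those of the paraoxonases PON1 (5.86 ± 0.27) and PON3 (5.08 ± 0.31). Of 6 cholesterol export genes 4 were called higher, led by the sterol half-transporters ABCG8 (5.14 ± 0.25) and ABCG5 (4.39 ± 0.23) and by NR1H3 (2.93 ± 0.49). Of 12 transcription factors known from liver 11 were called higher and none lower (1 lower, NR5A2, without the 2 libraries of animal 4), led by CREB3L3, which activates APOA4 and APOC2 (6.04 ± 0.20), HNF4A, a regulator of APOB and APOC3 (4.13 ± 0.20), and the bile acid receptor NR1H4 (4.05 ± 0.15). Of 11 other proteins carried on lipoproteins 9 were called higher, led by the serum amyloids SAA4 (6.84 ± 0.31) and SAA2 (6.43 ± 0.61) and by PON1, which is on 2 lists. ABCG8 (means of 0.267 to 0.457 TPM outside the liver) and NR1H4 (0.106 to 0.386 TPM) passed the filter on low values only through their livers. A difference for them was thus built into the filter. How many other list genes passed only through liver was not counted. The median log2 fold changes of these lists, in the order given, were 1.82, 1.93, 2.33, 2.04, 2.00 and 2.83, beside 0.36 over all features and 5.44 over the 19 apolipoprotein genes. Without the 2 libraries of animal 4 the genes called higher were, in the same order, 7 of 9, 10 of 11, 10 of 13, 5 of 6, 11 of 12 and 11 of 11. LRP1 was then at 3.22 and NR1H3 at 3.49. The share of all features called higher in that fit is not given here. These counts therefore do not show whether the rise was particular to the lists.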

How the data were processed

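Total RNA from frozen sections was DNase treated and sequenced as paired reads of 150 bases, per the labels' protocols. The authors deposited 1 table of gene-level TPM made with kallisto, per the submitters' processing notes; its version, the transcriptome, the genome build and the step from transcript to gene values are not given in the sources used here. TPM keeps no depth, so read numbers are unknown, no counting interval was set and count tests were not used. All libraries sum to the same total.

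Features with at least 1 TPM in at least 6 of 30 libraries were kept (13550 of 21292). Log2(TPM + 1), which understates changes of low genes, was fitted in limma 3.58.1 (R 4.3.3) with tissue and animal terms and a variance trend, over all 30 libraries, and p-values were adjusted per comparison by Benjamini-Hochberg over all features. The 10 tissue pairs were compared. Single genes were also tested within animals by an exact two-sided sign-flip test over 64 patterns. The numbers of the animals come from the labels and pair the tissues: deviations from the tissue means correlated at 0.161 on average within an animal and at -0.0186 between animals. The fit was tested on simulated data. Figures were drawn with matplotlib 3.10.9.

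The genes and lists were chosen with earlier results of these data known. Values in every tissue are given for genes with at least 100 TPM in their highest tissue and for those highest outside the liver by mean, the rest by ranges. The most alike genes are the 3 with the highest Pearson r, and each list names its 3 largest changes in liver against pancreas, of which some are not reported here. Alternatives were no animal term, the 12 compared libraries alone, trimmed-mean and quantile scaling, no filter or 5 TPM, a pseudocount of 0.1, no variance trend, and leaving out single animals or the libraries that stood apart.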

Additional observations from a re-analysis of the deposited data

Results flagged for a closer look

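Over 95 sets of 6 libraries (19 genes in 5 tissues), 13 had a highest or lowest library that lay far from the other 5 on the log2(TPM + 1) scale, by Dixon's criterion at 5%, where chance alone gives about 1 in 20. Of these, 9 were from animal 4, in submandibular gland or pancreas. Its submandibular library was apart for APOC1 (1033 TPM, next highest 80.6), APOD (388 TPM, next 29.6), APOE (2761 TPM, next 78.8), APOL1 (4.07 TPM, next 0.395), APOL2 (31.4 TPM, next 6.02), APOL4 (10.5 TPM, next 1.13), APOL5 (9.06 TPM, next 1.90) and APOL6 (59.2 TPM, next 1.75). Its pancreas library was apart for APOC4 (48.7 TPM, next 20.6).

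The parotid library of animal 6, which held 69993 TPM of skeletal muscle markers, was apart for APOC2 (59.6 TPM, next 32.3) and APOM (13.2 TPM, next 6.62). In sublingual gland animal 6 was apart on the low side for APOD (12.7 TPM, next lowest 64.9), and animal 5, whose library held 23520 TPM of skeletal muscle markers (8420 TPM in animal 1 and 49.0 to 302 TPM in the other 4), on the high side for APOF (25.6 TPM, next 3.02). The part of the marker sums in these values was not tested.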

How the results depend on the processing

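The 76 differences of single genes between liver and another tissue were recomputed 1284 times over the alternatives: 1247 kept direction and call, 22 lost the call, 13 gained it and 2 turned, both for APOL4 in liver against submandibular gland (-0.13 with trimmed-mean and -0.11 with quantile scaling, not called). The counts of genes called against liver stayed between 15 and 19 under every alternative run. The 5 TPM filter removed APOA4 and APOL4, so it gave no value for them.

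The counts without liver changed more. The number of all 13550 features called moved too. With trimmed-mean scaling it fell from 5625 to 2366 in parotid against sublingual gland and from 3787 to 2012 in submandibular against sublingual gland. It rose from 1316 to 2170 in submandibular gland against pancreas and from 2141 to 2266 in parotid against pancreas. For the other alternatives that number is not given here, so the counts below do not show whether a move was particular to these genes. Parotid against pancreas went from 6 to 0 with the 12 libraries alone and to 1 with trimmed-mean or quantile scaling, and ran from 1 to 6 when single animals were left out. Submandibular gland against pancreas went from 2 to 1 without the replicate block and to 1 with either scaling (APOF, higher in the gland and none of the main calls), to 4 with no filter, a pseudocount of 0.1 or no variance trend, to 5 with the 12 libraries, to 6 without the 2 libraries of animal 4, and ran from 0 to 6 when single animals were left out (1 without animal 6, APOC3 and not APOA2 or APOC4). Sublingual gland against pancreas went from 0 to 1 (trimmed-mean) and 4 (quantile). Parotid against sublingual gland went from 3 to 0 with either scaling, to 1 with the 12 libraries (APOC1, none of the main calls) and to 1 (APOA2) without the sublingual libraries of animals 1 and 5, to 5 with no filter or no trend, to 6 without the parotid library of animal 6 and to 8 without the 2 libraries of animal 4, and ran from 0 to 8 when single animals were left out. Submandibular against sublingual gland went from 1 to 0 with either scaling, the 12 libraries or without those 2 sublingual libraries, to 2 with no filter, the 5 TPM filter, no trend or without the parotid library of animal 6, to 10 without the 2 libraries of animal 4, and ran from 0 to 10 when single animals were left out. APOA2 turned in parotid against pancreas (0.11, quantile), in parotid against sublingual gland (0.19 and 0.73, trimmed-mean and quantile) and in submandibular against sublingual gland (0.12 and 0.55), and APOC3 in parotid against sublingual gland (0.22 and 0.48). The alternative without those sublingual libraries was chosen after seeing the data. The cause was not tested.

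Without the replicate block the counts against liver were 17 for parotid, 17 for submandibular gland, 18 for sublingual gland and 17 for pancreas, and the parotid and pancreas count was 5. With TPM alone, depth could not be used to weigh libraries, and values near 1 TPM are the least certain.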
